A study of Mus musculus with 23 samples.

Results

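Of 23 single neurons of the mouse arcuate hypothalamus, 5 had at least 500 FPKM of Kiss1, the gene of the kisspeptin precursor, and these 5 Kiss1-high cells are compared here with the other 18. FPKM counts sequenced fragments of a gene, divided by its length and by the library's mapped fragments. All 23 cells were picked by hand as GFP-positive neurons from 2 young adult males of a mixed background that carried vGLUT2-IRES-Cre and a Cre-dependent L10-GFP, so that any cell with present or past Cre activity at the locus of the glutamate transporter VGLUT2 could be labelled. The cells are called by their titles: JCb6-02, JCb6-04, JCb6-05 and JCb6-08 belong to the 8 cells with the prefix JCb6, and JCb5.2-8 to the 15 with the prefix JCb5.2. The labels explain neither prefix, and they tie no cell to either mouse. Cells are not replicates of an animal, and Kiss1 itself chose the groups, so every difference below is a description and no p-value is given.

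Kisspeptin neurons of the arcuate nucleus are often called KNDy neurons, because in mice they make kisspeptin, neurokinin B (from Tac2) and dynorphin (from Pdyn). Kisspeptin excites the neurons that release gonadotropin-releasing hormone. Neurokinin B acts on its receptor, encoded by Tacr3, on KNDy neurons themselves, and dynorphin acts on the kappa opioid receptor, encoded by Oprk1; this pair of signals is known for the synchronised bursts behind pulsatile hormone release. Sex steroids from the gonads act on KNDy neurons through nuclear receptors and lower kisspeptin synthesis there.

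Kiss1 (chr1:133327212-133329722, plus strand in mm10, protein coding) stood at 1485, 1078, 978, 2963 and 895 FPKM in JCb5.2-8, JCb6-02, JCb6-04, JCb6-05 and JCb6-08. Values of the Kiss1-high cells are given in this order throughout. The other 18 cells had 0.442 to 62.5 FPKM (median 2.36), with 13.2, 8.54, 62.5 and 26.3 FPKM in JCb6-01, JCb6-03, JCb6-06 and JCb6-07. The lowest Kiss1-high cell, JCb6-08, and the highest other cell, JCb6-06, were the closest to the threshold on either side. Every other JCb6 cell listed a low level of Kiss1, and whether that was the cell's own RNA was not tested.

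Tac2 (chr10:127724478-127731768, plus strand) had 1245, 1814, 1206, 1421 and 67.02 FPKM in the Kiss1-high cells, against 0.365 to 42.7 FPKM (median 0.673) in the other 18. The groups did not overlap, but JCb6-08 stood apart from the other 4 Kiss1-high cells and close to JCb6-06, the highest of the rest. Pdyn (chr2:129688001-129689868, minus strand) had 894, 730.1, 128, 1029 and 1117 FPKM in the Kiss1-high cells, against 2.03 to 1031 FPKM (median 83.2) in the other 18. Here the groups overlapped widely: JCb6-04 was the lowest Kiss1-high cell, and JCb5.2-3 among the other cells was as high as JCb6-05. Kiss1 chose the cells, so Tac2 and Pdyn are the markers that bear on the KNDy label. Tac2 passed the threshold used below both over all cells and inside JCb6. Pdyn passed it over all cells but not inside JCb6, so Pdyn is not called higher. JCb5.2-8, JCb6-02 and JCb6-05 had high levels of both, JCb6-04 had high Tac2 and less Pdyn, and JCb6-08 had high Pdyn but little Tac2. For Pdyn only JCb6-08 was above the range of the other cells, and the other 4 Kiss1-high cells lay inside it.

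**Figure D1:**
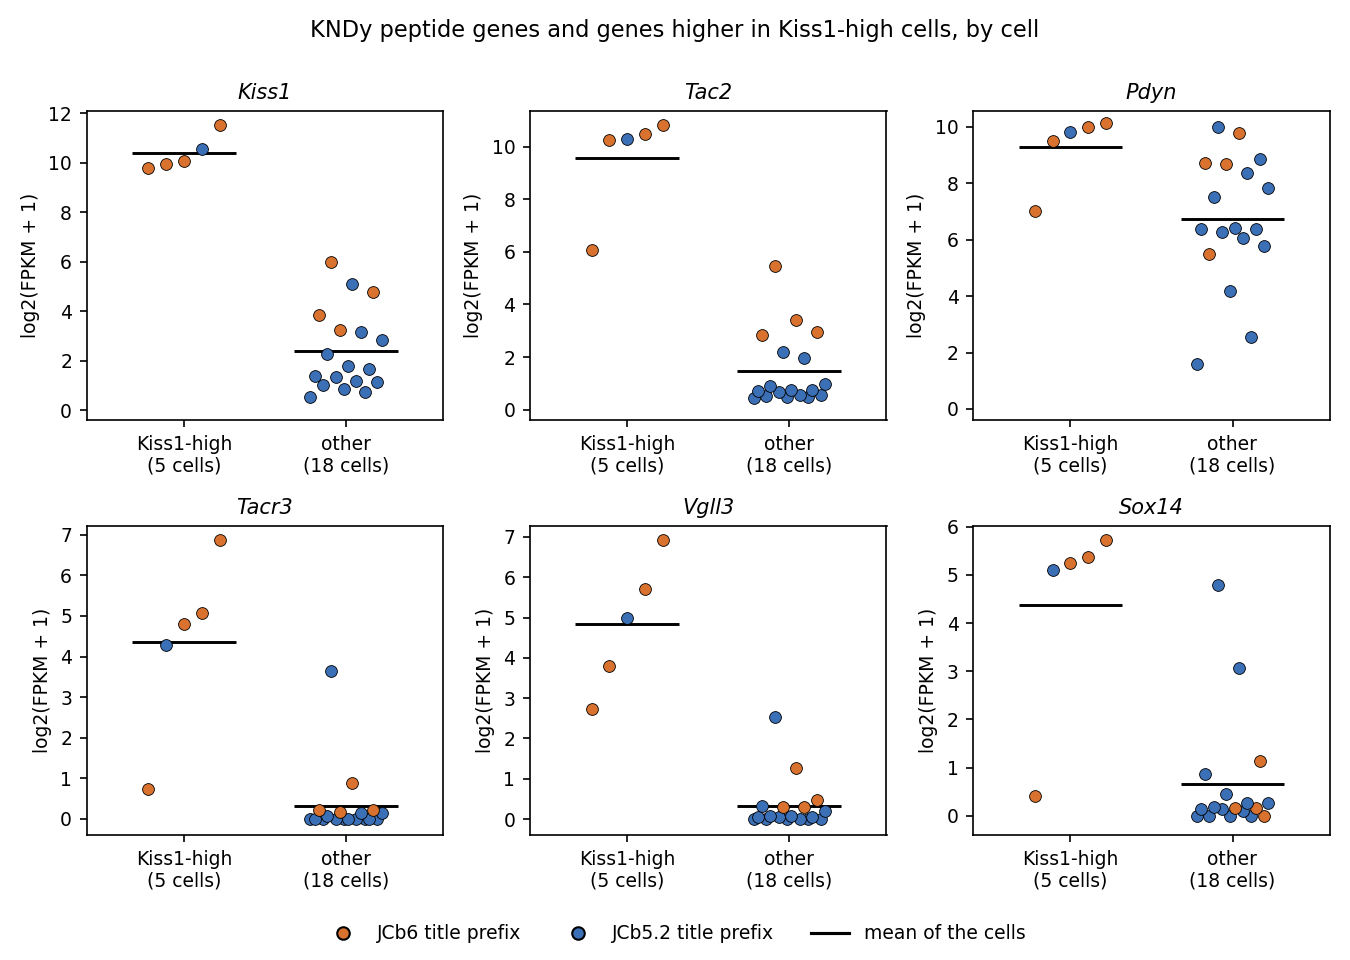
Expression of Kiss1, Tac2, Pdyn, Tacr3, Vgll3 and Sox14 as log2(FPKM + 1) on the vertical axis, in 5 Kiss1-high cells on the left and 18 other cells on the right of each panel. Each point is a cell, coloured by title prefix, and the line is the mean. The groups do not overlap for Kiss1, Tac2 and Vgll3; JCb6-02 lies among the other cells for Tacr3 and Sox14.

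The libraries differed in ways that run with the groups. The Kiss1-high cells had 6373, 4049, 5990, 6321 and 6698 genes at or above 1 FPKM, against 6393 to 8025 (median 7200.5) in the other 18 and 6496, 7619, 7589 and 7550 in the other JCb6 cells. All Kiss1-high cells but JCb6-08 were thus below every other cell. Library depth relative to the shallowest cell, estimated from the steps between low values, was 1.69, 2.45, 3.04, 4.21 and 1.59 in the Kiss1-high cells, against 1 to 3.30 in the others, and JCb6-05, the deepest library of all, was among those with fewer genes. JCb6-02 stood apart: its 10 most abundant genes made up 14.4% of its FPKM on loci of 300 bp or more, against 6.63 to 8.60% in the other 4 Kiss1-high cells. A call is made below where a gene passed a threshold in both comparisons, and calls on 71 of 116 named genes were the same whichever of the 5 Kiss1-high or 4 other JCb6 cells was left out. Without JCb6-02 26 of the 116 calls were lost, and without any other of these cells 4 to 19; values without a cell are given beside the genes described.

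Far more genes were lower than higher in the Kiss1-high cells. For 11593 genes with a locus of at least 300 bp and at least 1 FPKM in 3 or more cells, the mean of log2(FPKM + 1) over other cells was subtracted from that over Kiss1-high cells, and a difference of 1 or more, which is 2-fold on this scale, is called higher or lower here. Over all cells 671 genes (5.79%) were higher and 2466 (21.3%) lower. Inside JCb6, with 4 Kiss1-high against 4 other cells, 953 (8.22%) were higher and 3185 (27.5%) lower. Both comparisons share the Kiss1-high JCb6 cells; 436 genes (3.76%) were higher in both and 1838 (15.9%) lower in both, and a gene is called higher or lower below only if it passed in both. The scale understates the change of genes with low values.

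The median gene also sat lower in the Kiss1-high cells, by a difference of -0.34 over all cells and inside JCb6 alike. Without JCb6-02 the medians were -0.17 and -0.14, the genes higher inside JCb6 numbered 1508 and those higher in both 668. Leaving out any other Kiss1-high cell gave medians of -0.41 to -0.38 over all cells and -0.43 to -0.34 inside JCb6. The part of the number of genes detected in the excess of lower genes was not tested. Few genes set all 5 cells apart: 4 genes (0.0345%) were above every other cell in all 5, namely Kiss1, Tac2, Vgll3 and Cramp1l, and 6 (0.0518%) below, namely Isl1, Ddx3y, Ube2d1, Rnf128, Cdc37l1 and Pfkl. Kiss1 was apart by the choice of the cells. These counts depend on which cells are included: without JCb6-02 they were 11 above and 8 below, without JCb5.2-8 6 and 25, without JCb6-04 7 and 13, without JCb6-05 8 and 19 and without JCb6-08 7 and 21, while a Kiss1 threshold of 1000 FPKM gave 19 and 33. Inside JCb6, where 4 cells face 4, 73 genes (0.63%) were apart upward and 356 (3.07%) downward.

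Vgll3, a vestigial-like cofactor of TEAD transcription factors (chr16:65815633-65863066, plus strand), had 30.6, 120.4, 5.67, 51.1 and 12.9 FPKM in the Kiss1-high cells, against 0 to 4.75 FPKM (median 0.04502) in the other 18. Its difference was 4.51 over all cells and 4.21 inside JCb6. All 5 Kiss1-high cells lay above every other cell, though JCb6-04 was only just above JCb5.2-15, the highest of the rest. Cramp1l, named because it is 1 of the 4 and not by its size, had 14.5, 144, 9.28, 7.49 and 10.5 FPKM in the Kiss1-high cells, against 0 to 7.06 FPKM (median 0.965) in the other 18. JCb6-05 was only just above JCb6-06, the highest of the rest, and the groups overlapped once the cells were rescaled to equal FPKM sums or by their median ratio.

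Among the receptors of the KNDy peptides, Tacr3, the neurokinin B receptor (chr3:134829007-134934581, plus strand), was the gene that separated most cells. It had 18.5, 0.658, 26.99, 116 and 32.9 FPKM in the Kiss1-high cells, against 0 to 11.6 FPKM (median 0) in the other 18. The Kiss1-high cells JCb5.2-8, JCb6-04, JCb6-05 and JCb6-08 lay above every other cell, and JCb6-02, with 1814 FPKM of the ligand gene Tac2, had less than 1 FPKM of Tacr3. The difference was 4.05 over all cells and 3.99 inside JCb6.

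Oprk1, the kappa opioid receptor, had 17.1, 0.226, 0.0519, 20.05 and 0.149 FPKM in the Kiss1-high cells, against 0 to 13.4 FPKM (median 0) in the others, so among the Kiss1-high cells it reached 1 FPKM in JCb5.2-8 and JCb6-05 alone. Oprl1, the nociceptin receptor, was at 38.02, 56.9, 96.6, 51.9 and 58.5 FPKM, against 0.359 to 132 FPKM (median 29.9), with a difference of 1.11 over all cells and 0.52 inside JCb6. Oprm1, the mu opioid receptor, was high in JCb6-02 alone, with 0.186, 192, 0.0517, 0.187 and 0.296 FPKM, against 0 to 31.3 FPKM (median 0.279) in the others. The kisspeptin receptor gene Kiss1r and the neurokinin receptor gene Tacr2 were listed at 0 in all 5 Kiss1-high cells, Tacr1 had at most 0.0499 FPKM there and the delta opioid receptor gene Oprd1 was listed at 0. Of the 8 receptor genes, 5 passed the filter on low values, and Tacr3 was the 1 called higher, with none called lower. Over all genes 3.76% were higher and 15.9% lower.

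The sequence upstream of the start of the 4 genes Kiss1, Tac2, Tacr3 and Vgll3 is shown for reference. For each of them at least 4 of the 5 Kiss1-high cells, not always the same ones, lay above every other cell. The 250 bases before each RefSeq start are printed (GRCm38.p6, plus strand genes): chr1:133326962-133327211 for Kiss1, chr10:127724228-127724477 for Tac2, chr3:134828757-134829006 for Tacr3 and chr16:65814939-65815188 for Vgll3, whose RefSeq start lies upstream of the start of the deposited locus. Capitals mark matches, on either strand, to the TATA box TATAAA, the GC box GGGCGG, the E-box CANNTG, the cyclic AMP response element TGACGTCA or the palindromic estrogen response element.

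Kiss1: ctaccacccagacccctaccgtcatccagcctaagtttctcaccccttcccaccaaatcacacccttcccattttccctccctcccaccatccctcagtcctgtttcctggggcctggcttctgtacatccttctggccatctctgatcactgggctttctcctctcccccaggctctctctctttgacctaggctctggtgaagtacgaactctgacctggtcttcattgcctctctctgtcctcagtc
Tac2: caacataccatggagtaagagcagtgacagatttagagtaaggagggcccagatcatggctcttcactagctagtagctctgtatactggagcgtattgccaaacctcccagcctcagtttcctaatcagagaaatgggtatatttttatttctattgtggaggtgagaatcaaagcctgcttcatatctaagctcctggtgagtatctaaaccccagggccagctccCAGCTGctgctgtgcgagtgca
Tacr3: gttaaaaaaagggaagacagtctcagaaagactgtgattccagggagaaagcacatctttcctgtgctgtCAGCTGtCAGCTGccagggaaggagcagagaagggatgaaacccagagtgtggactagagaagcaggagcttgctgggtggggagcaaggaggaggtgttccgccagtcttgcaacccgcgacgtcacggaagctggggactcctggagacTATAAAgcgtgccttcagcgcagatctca
Vgll3: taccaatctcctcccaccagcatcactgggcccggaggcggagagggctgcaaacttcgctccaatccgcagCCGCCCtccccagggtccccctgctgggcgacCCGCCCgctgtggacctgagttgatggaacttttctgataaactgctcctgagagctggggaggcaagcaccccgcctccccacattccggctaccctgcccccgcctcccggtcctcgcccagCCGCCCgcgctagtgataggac

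The Kiss1 window held none of these letters. The Tac2 window held an E-box beginning at position -22 from the start, the Tacr3 window a TATA box at -29 and E-boxes at -180 and -173, and the Vgll3 window GC boxes at -178, -146 and -22. Of 32851 mouse promoter windows of this length, 66.2% held an E-box, 32.7% a GC box, 12.4% a TATA box, 1.55% the cyclic AMP element and 0.0639% the estrogen element. No motif was common to all 4 windows.

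The genes of estrogen receptor alpha and the progesterone receptor did not divide the groups, and each was under 1 FPKM in at least 1 Kiss1-high cell. Esr1, the estrogen receptor alpha gene, had 1.44, 0.785, 3.69, 3.502 and 1.33 FPKM in the Kiss1-high cells, against 0.0139 to 2.76 FPKM (median 0.355) in the other 18; the difference of 0.89 over all cells and 0.51 inside JCb6 is under the threshold, and the levels overlap. Pgr, the progesterone receptor gene, had 2.53, 0.187, 10.99, 15.5 and 0.323 FPKM in the Kiss1-high cells, against 0.0275 to 40.3 FPKM (median 3.37) in the other 18. Esr2 did not reach 1 FPKM in any cell.

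Of 24 steroid and nuclear receptor genes, 19 passed the filter. Rxrb was higher and Thrb, Rxrg and Rora were lower, near the shares of 3.76% and 15.9% over all genes. The median difference of the list was 0.18 over all cells and 0.28 inside JCb6. Rxrg, a retinoid X receptor, was at 3.24, 0.383, 0.111, 0.0942 and 17.1 FPKM in the Kiss1-high cells, against 0.301 to 101 FPKM (median 34.7) in the others. Rxrb, its paralog, was at 27.2, 1.03, 11.03, 0 and 0.0994 FPKM, against 0 to 17.7 FPKM (median 0.0851). Both retinoid X receptors were uneven among the Kiss1-high cells: JCb6-08 had the most Rxrg and JCb5.2-8 the most Rxrb. The call on Rxrb was lost without JCb5.2-8 (0.31 over all cells), without JCb6-04 (0.30 inside JCb6) and, just under the threshold over all cells, without any of the 4 other JCb6 cells, and that on Thrb without JCb6-01 (-0.77 inside JCb6).

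A target of estrogen signalling and the prolactin receptor were more even. Greb1, a gene that estrogen induces in human breast cancer cells, had 4.02, 2.46, 3.42, 4.85 and 2.05 FPKM in the Kiss1-high cells, against 0.00451 to 2.81 FPKM (median 0.0314) in the other 18. Its difference was 1.74 over all cells and 1.598 inside JCb6, and JCb6-08 and JCb6-02 were the Kiss1-high cells that fell below JCb5.2-1, the highest of the others. Prlr, the prolactin receptor gene, had 1.95, 6.62, 4.32, 4.6004 and 3.89 FPKM in the Kiss1-high cells, against 0.005105 to 2.63 FPKM (median 0.578) in the other 18. All 4 Kiss1-high JCb6 cells were above every other cell and JCb5.2-8 was not; the difference was 1.65 over all cells and 1.89 inside JCb6. In the reproductive axis list 10 of 22 genes passed the filter, with Prlr higher and Acvr2a, an activin receptor, and Socs2, a suppressor of cytokine signalling, lower. The shares over all genes were 3.76% higher and 15.9% lower.

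Some transcription factors of the arcuate nucleus differed, in both directions. Isl1, a LIM-homeodomain factor of arcuate neurons (chr13:116298270-116309688, minus strand), had 1.36, 1.88, 0.325, 0.587 and 0.931 FPKM in the Kiss1-high cells, against 3.97 to 139 FPKM (median 33.3) in the other 18. Its difference was -4.14 over all cells and -4.31 inside JCb6, and every Kiss1-high cell was below every other cell. Six3, a homeodomain factor, had 0.195, 0.3596, 0.145, 0.105 and 0.0691 FPKM in the Kiss1-high cells, against 0.215 to 23.8 FPKM (median 12.2) in the other 18; only JCb6-02 of the Kiss1-high cells reached into the range of the others. Six6, its relative, was at 11.9, 0.167, 0.0335, 0.0242 and 0.128 FPKM, against 0.0327 to 28.2 FPKM (median 8.14), and JCb5.2-8 kept it.

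Sox14, an SRY-box transcription factor (chr9:99874106-99876170, minus strand), had 33.3, 0.336, 51.9, 36.9 and 40.1 FPKM in the Kiss1-high cells, against 0 to 26.7 FPKM (median 0.127) in the other 18. As for Tacr3, JCb6-02 lacked it and the other 4 lay above every other cell; the difference was 3.72 over all cells and 3.82 inside JCb6. Bsx, a homeodomain factor known from feeding neurons, had 151, 1.63, 102, 72.99 and 64.1 FPKM in the Kiss1-high cells, against 0 to 115 FPKM (median 1.15) in the other 18, and JCb6-02 was again the low cell. Nhlh2 and Sox11 were higher too, with differences of 2.24 over all cells and 1.37 inside JCb6 for Nhlh2 and 2.14 over all cells and 2.68 inside JCb6 for Sox11, and Nhlh2 was at 0.283 FPKM in JCb6-05. The call on Nhlh2 was lost inside JCb6 without JCb6-02 (0.80), JCb6-03 (0.64) or JCb6-04 (0.38). Nkx2-1, which marks the ventral hypothalamus, was at 1.32, 1.52, 93.1, 52.5 and 79.9 FPKM, against 0.713 to 76.8 FPKM (median 41.1), so JCb5.2-8 and JCb6-02 were low. Of 40 listed factors 15 passed the filter, 4 of them higher and 3 lower, beside 3.76% and 15.9% over all genes.

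Pomc and Cartpt, genes of other arcuate peptides, were at the low end. Pomc, which encodes the alpha-MSH precursor, had 60.9, 108, 38.997, 25.6 and 40.5 FPKM in the Kiss1-high cells, against 25.5 to 9534 FPKM (median 761) in the other 18, with a difference of -3.43 over all cells and -3.51 inside JCb6. Cartpt, the gene of the CART peptide, had 412, 204, 54.6, 50.3 and 70.4 FPKM in the Kiss1-high cells, against 61.7 to 32793 FPKM (median 1269.6) in the other 18, with a difference of -3.71 over all cells and -2.23 inside JCb6. The Kiss1-high cells all lay below the medians of the others for both genes, while some of the others were as low. Gal, the galanin gene, had 46.6, 579, 92.3, 10.9 and 42.9 FPKM in the Kiss1-high cells, against 6.88 to 3279 FPKM (median 223) in the other 18, so JCb6-02 was above the median of the others. The call on Gal was lost inside JCb6 without JCb6-03 (-0.70), JCb6-05 (-0.14), JCb6-07 (-0.504) or JCb6-08 (-0.77). Of 36 peptide genes 14 passed the filter. Pomc, Cartpt, Gal, Pnoc and Sncg, 5 of the 14, were lower, against 15.9% of all genes, and none was higher, against 3.76%. The rest were called in neither direction, and the median of the list was -0.91 over all cells and -0.72 inside JCb6. Pnoc fell short of the call over all cells without JCb6-02 (-0.92), JCb6-04 (-0.91), JCb6-07 (-0.89) or JCb6-08 (-0.92), and Sncg inside JCb6 without JCb6-06 (-0.0975).

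**Figure D2:**
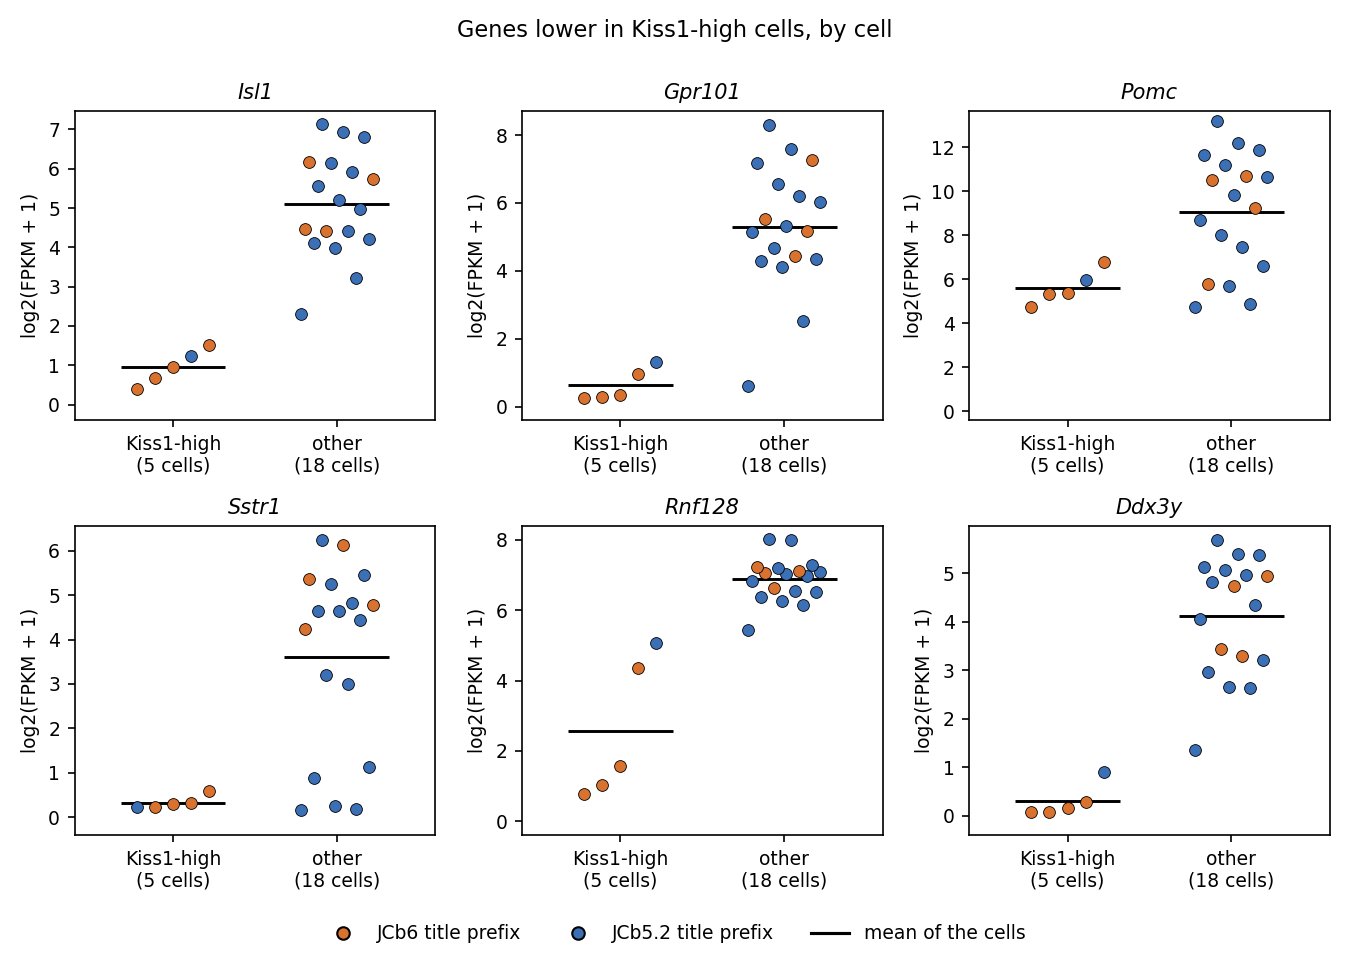
Expression of Isl1, Gpr101, Pomc, Sstr1, Rnf128 and Ddx3y as log2(FPKM + 1) on the vertical axis, in 5 Kiss1-high cells on the left and 18 other cells on the right of each panel. Each point is a cell, coloured by title prefix, and the line is the mean. The groups do not overlap for Isl1, Rnf128 and Ddx3y; 1 of the other cells is within the Kiss1-high range for Gpr101.

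Among receptors for other signals, those with the largest differences were lower. Gpr101, an orphan G protein-coupled receptor (chrX:57496668-57503757, minus strand), had 1.51, 0.953, 0.219, 0.185 and 0.279 FPKM in the Kiss1-high cells, against 0.515 to 314 FPKM (median 37.2) in the other 18, and its difference was -4.66 over all cells and -5.13 inside JCb6. JCb5.2-15 was the only other cell within the Kiss1-high range. Sstr1, a somatostatin receptor, had 0.168, 0.504, 0.2498, 0.225 and 0.179 FPKM in the Kiss1-high cells, against 0.122 to 74.9 FPKM (median 22.3) in the other 18. All 4 other JCb6 cells had it, at 68.7, 17.9, 39.995 and 26.3 FPKM, so inside JCb6 the groups did not overlap, while 4 of the other JCb5.2 cells were also under 1 FPKM. Gfra1, the co-receptor of the growth factor GDNF, had 1.05, 2.12, 2.04, 0.421 and 0.875 FPKM in the Kiss1-high cells, against 0.684 to 281 FPKM (median 37.99) in the other 18.

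In the list of 20 tested neuropeptide, amine and lipid receptors, 1 was higher and 4 lower, against 3.76% and 15.9% of all genes, so most of the list was called in neither direction; the median was -0.74 over all cells and -0.53 inside JCb6. The higher gene was Cnr1, the cannabinoid receptor, at 0.0282, 16.4, 0.0577, 5.71 and 3.84 FPKM in the Kiss1-high cells, against 0.00538 to 7.64 FPKM (median 0.135). Among the Kiss1-high cells it was present in JCb6-02, JCb6-05 and JCb6-08 only, and the call was lost without JCb6-02 (0.62 over all cells and 0.78 inside JCb6) or JCb6-05 (0.97 over all cells). Among 21 tested metabolic and feeding receptors, Ramp3, a partner protein of the calcitonin receptor, was higher, and Mc3r, Npy1r, Cckar and Irs4 were lower. The shares of 3.76% and 15.9% over all genes apply here too. The call was lost for Mc3r inside JCb6 without JCb6-03 (-0.38), JCb6-04 (-0.87) or JCb6-05 (-0.84), for Npy1r over all cells without JCb6-02 (-0.75) or JCb6-04 (-0.67) and for Cckar inside JCb6 without JCb6-07 (-0.021). Ramp3 had 57.5, 0.768, 46.4, 0.0893 and 28.8 FPKM in the Kiss1-high cells, against 0 to 22.1 FPKM (median 0) in the other 18. Irs4, an insulin receptor substrate, had 0.822, 0.557, 18.9, 2.16 and 0.103 FPKM in the Kiss1-high cells, against 11.02 to 106 FPKM (median 36.8) in the other 18; JCb6-04 was the Kiss1-high cell in the range of the others.

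The VGLUT2 gene that drives the label was itself higher. Slc17a6 had 58.1, 7.02, 99.96, 117 and 81.3 FPKM in the Kiss1-high cells, against 0.5198 to 139 FPKM (median 31.2) in the other 18, with a difference of 1.22 over all cells and 1.69 inside JCb6. JCb6-02 was low and the other 4 Kiss1-high cells lay above the median of the others. The call was lost without JCb6-04 (0.99 over all cells), JCb6-05 (0.94 over all cells) or JCb6-07 (0.81 inside JCb6). Gad1 and Gad2, which make GABA, were lower: Gad1 was at 20.9, 138, 0.282, 0.346 and 0.377 FPKM, against 0.364 to 247 FPKM (median 23.04), and Gad2 at 23.8, 19.2, 4.59, 0.117 and 0.0443 FPKM, against 0.0657 to 130.4 FPKM (median 31.6). JCb5.2-8 and JCb6-02 had both GABA synthesis genes, and JCb6-05 and JCb6-08 had neither at 1 FPKM. The call on Gad1 was lost over all cells without JCb6-04 (-0.79), JCb6-05 (-0.81) or JCb6-08 (-0.82), and with a Kiss1 threshold of 1000 FPKM, which leaves JCb5.2-8, JCb6-02 and JCb6-05 as the Kiss1-high cells, its difference turned to 0.44 over all cells and 0.78 inside JCb6. Of 11 tested transmitter genes 1 was higher and 3 lower, beside 3.76% and 15.9% over all genes.

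Among 48 tested channel genes 2 were higher and 6 lower, near the shares of 3.76% and 15.9% over all genes. Cacna1g, a T-type calcium channel that supports burst firing, had 17.9, 41.96, 17.2, 22.6 and 21.5 FPKM in the Kiss1-high cells, against 0.01896 to 32.4 FPKM (median 1.56) in the other 18. The Kiss1-high cells were close together and above the median of the others, but other JCb6 cells reached 32.4 FPKM, and the difference was 2.94 over all cells and 1.16 inside JCb6, where the call was lost without JCb6-01 (0.95), JCb6-02 (0.91) or JCb6-07 (0.81). Ano1, a calcium-activated chloride channel, was higher through JCb6-02 and JCb6-04, at 0, 107, 15.7, 0.0414 and 0.109 FPKM, and the call was lost without JCb6-02 (0.72 over all cells). That on Scn8a, given next, was lost over all cells without JCb6-02 or JCb5.2-8 (-0.89 each). The lower ones included the sodium channel genes Scn2a1 (difference -1.596 over all cells and -2.16 inside JCb6) and Scn8a (-1.098 over all cells and -1.999 inside JCb6) and the potassium channel gene Kcnj3 (-1.85 over all cells and -2.61 inside JCb6). The median over the channel list was -0.03 over all cells and -0.19 inside JCb6, nearer to 0 than that of all genes.

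Of 18 tested glutamate receptor genes 3 were lower, near the 15.9% of all genes, and of 18 GABA and glycine receptor genes 5 were. None was higher, where all genes had 3.76%. Gria2, an AMPA receptor subunit, was at 46.1, 10.7, 51.04, 40.6 and 13.1 FPKM, against 28.5 to 114 FPKM (median 60.3) in the others, with the low values in JCb6-02 and JCb6-08, and the call was lost over all cells without JCb6-02 (-0.92) or JCb6-08 (-0.99). Gabrb2, a GABA-A receptor subunit, was at 0.0796, 0.0367, 0, 0.03201 and 9.76 FPKM, against 0.1098 to 15.4 FPKM (median 4.16); JCb6-08 was the Kiss1-high cell that had it. Gabrg1 was at 32.6, 0.513, 0.193, 73.02 and 0.0526 FPKM, against 0.282 to 62.6 FPKM (median 20.3), and the call was lost over all cells without JCb6-02 (-0.94), JCb6-04 (-0.86) or JCb6-08 (-0.81) and inside JCb6 without JCb6-01 (-0.94).

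Of 23 prohormone and granule genes 1 was higher and 6 lower, and of 24 synaptic vesicle and SNARE genes 1 was higher and 6 lower, beside 3.76% higher and 15.9% lower over all genes. Pcsk2, a prohormone convertase that cleaves neuropeptide precursors, was at 25.1, 106, 20.7, 93.5 and 12.2 FPKM, against 0.189 to 175 FPKM (median 22.4), with a difference of 1.41 over all cells and 1.17 inside JCb6, where the call was lost without JCb6-01 (0.083), JCb6-02 (0.71), JCb6-03 (0.595) or JCb6-05 (0.77). Pcsk1, the other main convertase, was at 6.06, 1.82, 0.544, 141 and 0.831 FPKM, against 0.264 to 76.5 FPKM (median 20.9), and was above every other cell in JCb6-05 in spite of its lower mean; its call was lost over all cells without JCb6-02 (-0.82), JCb6-04 (-0.605), JCb6-08 (-0.67) or, just under the threshold, JCb6-01 or JCb6-06. Cplx1, a complexin that controls vesicle fusion, was at 11.96, 1.0999, 25.7, 33.5 and 75.2 FPKM, against 0.0467 to 39.2 FPKM (median 5.14). Syp, the vesicle protein synaptophysin, was called lower at 34.8, 2.69, 102, 145 and 125 FPKM, against 79.4 to 239 FPKM (median 138); without JCb6-02 its difference inside JCb6 was 0.10.

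In the calcium list, 2 of 28 genes were higher and 7 lower, beside 3.76% and 15.9% over all genes. Pvalb, the calcium buffer parvalbumin, had 280.5, 3.58, 0.349, 14.6 and 0.0833 FPKM in the Kiss1-high cells, against 0 to 0.641 FPKM (median 0.233) in the other 18. JCb5.2-8, JCb6-02 and JCb6-05 were above all of the others, and JCb6-04 and JCb6-08 were not. Pvalb passed the filter of 1 FPKM in 3 or more cells through these Kiss1-high cells alone. It could thus hardly be called lower, and its place among the 2 higher genes is favoured by the filter. Without JCb6-05 the difference inside JCb6 was 0.78, under the threshold. Rgs2, a regulator of G protein signalling, had 29.1, 39.3, 66.8, 80.7 and 49.9 FPKM in the Kiss1-high cells, against 0.0693 to 145 FPKM (median 11.3) in the other 18, with a difference of 2.35 over all cells and 1.64 inside JCb6, and it was 0.46 inside JCb6 without JCb6-01. Gnas, the stimulatory G protein alpha subunit, had 612, 475, 395, 832 and 790.3 FPKM in the Kiss1-high cells, against 825 to 4382 FPKM (median 1743) in the other 18; JCb6-05 was the only Kiss1-high cell in the range of the others, and the call was lost inside JCb6 without JCb6-04 (-0.97) or JCb6-07 (-0.87).

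Immediate-early genes, which respond to activity and to dissociation, counted 3 higher and 1 lower of 21, beside 3.76% and 15.9% over all genes. Egr1 had 700.3, 464, 796, 174 and 499 FPKM in the Kiss1-high cells, against 3.96 to 1789 FPKM (median 153) in the other 18, with a difference of 1.96 over all cells and 2.88 inside JCb6. Ier2 had 16.6, 14.6, 153, 65.97 and 115 FPKM in the Kiss1-high cells, against 0 to 162 FPKM (median 0.557) in the other 18, with a difference of 3.97 over all cells and 3.51 inside JCb6. Both overlapped with the other cells. Fos was at 1217, 428, 421, 1124 and 1330.5 FPKM, against 11.2 to 2469 FPKM (median 478), and its difference of 0.73 over all cells was under the threshold. Among 20 pan-neuronal and housekeeping genes none was higher and 2 were lower, beside 3.76% and 15.9% over all genes. Their median difference was 0.15 over all cells and 0.14 inside JCb6.

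**Figure D3:**
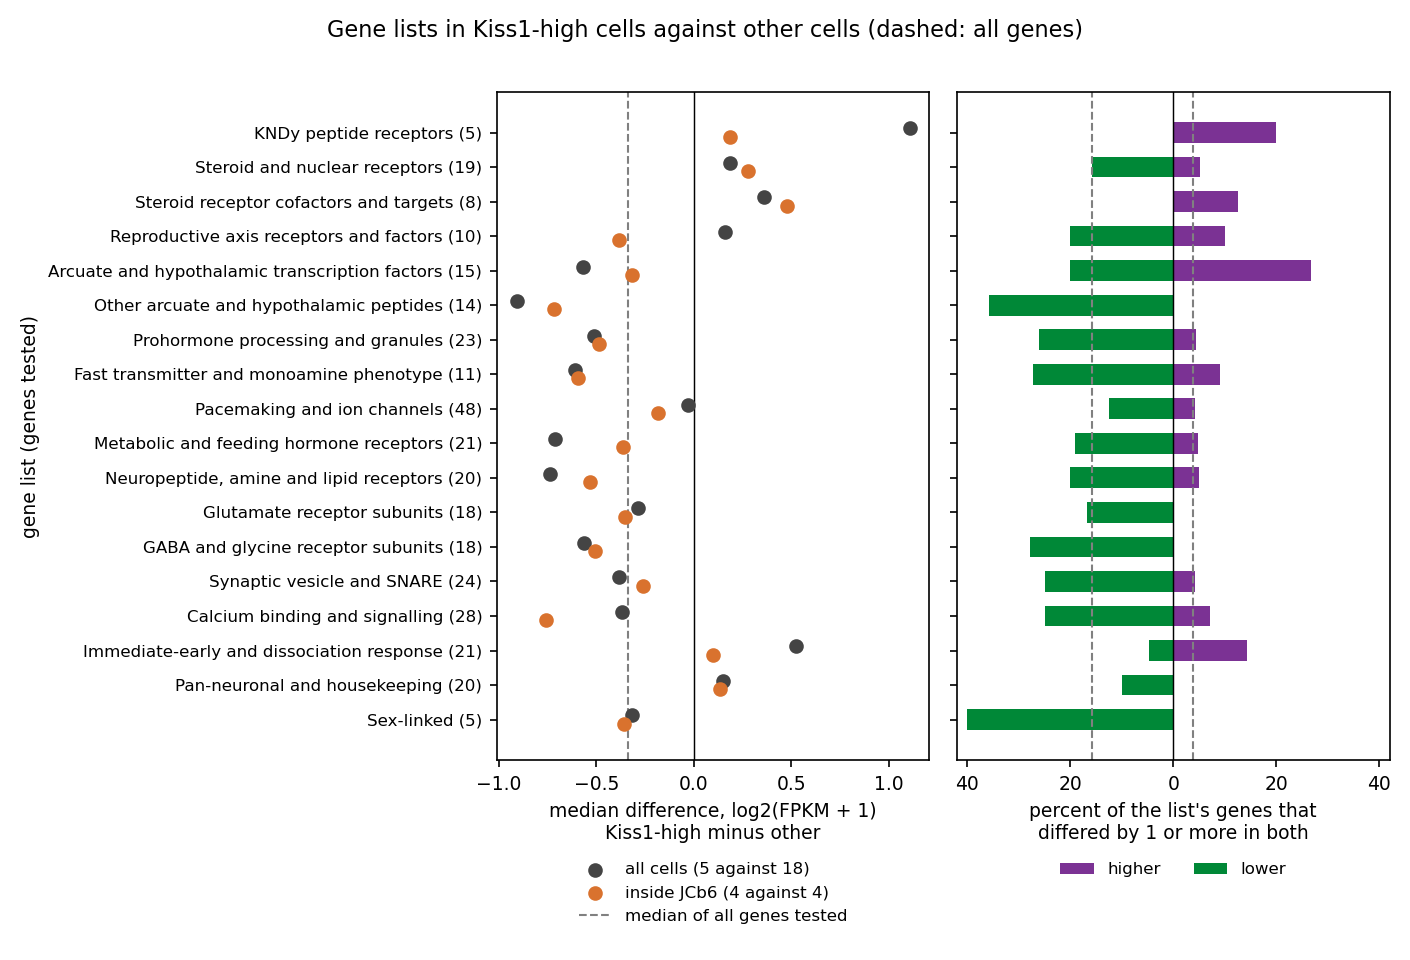
Left, the median difference in mean log2(FPKM + 1), Kiss1-high minus other, for each gene list, over all cells (grey) and inside JCb6 (orange), with the median of all 11593 genes tested dashed. Right, the percentage of each list's tested genes that were higher or lower in both comparisons, with the percentages over all genes, 3.76 and 15.9, dashed. Other arcuate peptides have the lowest median over all cells, and transcription factors the largest share of higher genes among the lists drawn.

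Beyond the lists, the genes with the largest differences in both comparisons were led by Kiss1, Tac2, Vgll3, Tacr3, Sox14 and Ier2. Lmo1, a LIM-only transcriptional adaptor, had 237, 1.26, 283, 21.4 and 115 FPKM in the Kiss1-high cells, against 0 to 62.98 FPKM (median 0.285) in the other 18. Tmem8c, which encodes the fusion protein myomaker of muscle, had 207, 1.48, 37.3, 271 and 54.1 FPKM in the Kiss1-high cells, against 0 to 26.2 FPKM (median 0.472) in the other 18, and Lhx5, a LIM-homeodomain factor, 43.6, 0.3702, 79.04, 60.2 and 21.9 FPKM, against 0 to 29.04 FPKM (median 0.352). JCb6-02 was the low Kiss1-high cell for all 3 genes. Rasd1, a Ras-related gene induced by dexamethasone, followed the same pattern, at 156, 0.778, 31.1, 165 and 89.4 FPKM, against 0.109 to 81.96 FPKM (median 2.74).

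Other genes were uneven in another way. Cryl1, a crystallin-related gene, had 0, 193, 0.7302, 51.4 and 42.03 FPKM in the Kiss1-high cells, against 0 to 8.25 FPKM (median 0) in the other 18, and C1ql2, a secreted synaptic organiser, had 0, 1.65, 169, 239 and 0.936 FPKM in the Kiss1-high cells, against 0 to 4.46 FPKM (median 0) in the other 18. Both were listed at 0 in JCb5.2-8. Pip4k2c, a phosphoinositide kinase, had 1.85, 25.5, 67.1, 34.05 and 42.1 FPKM in the Kiss1-high cells, against 0 to 14.5 FPKM (median 0.379) in the other 18, with the 4 Kiss1-high JCb6 cells above every other cell; its locus overlaps that of F420014N23Rik on the opposite strand, and reads of the pair cannot be told apart without strand. Mrps9, a mitochondrial ribosomal protein, was highest in JCb6-02, at 40.4, 396, 54.5, 49.1 and 41.3 FPKM, against 0 to 65.4 FPKM (median 13.5).

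Some of these 20 genes are uncertain. Amd2 shares 14722 bases of its locus with Amd1, so its 0.000449, 251, 66.6, 43.6 and 16.4 FPKM may be split between copies. Zfp593 and E130218I03Rik lie on opposite strands and share 1829 bases, and their values ran together, at 24.7, 0.441, 39.3, 8.36 and 20.6 FPKM for Zfp593 and 24.6, 0.587, 19.2, 9.67 and 27.1 FPKM for E130218I03Rik. The remaining ones were Gm2694, Tmem234 and Tmem86a, with differences between 2.87 and 3.36 over all cells.

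Of the 20 lower genes, Rnf128, an E3 ubiquitin ligase, had 32.2, 1.96, 1.04, 0.714 and 19.3 FPKM in the Kiss1-high cells, against 42.1 to 261 FPKM (median 127) in the other 18. Ube2d1, a ubiquitin-conjugating enzyme, had 0.921, 0.255, 0.103, 0.07405 and 0 FPKM in the Kiss1-high cells, against 2.81 to 72.3 FPKM (median 34.7) in the other 18. Every other cell had both, and the Kiss1-high cells were below all of them; the differences were -4.32 over all cells and -5.08 inside JCb6 for Rnf128 and -4.49 over all cells and -4.59 inside JCb6 for Ube2d1. Cdc37l1, related to an Hsp90 co-chaperone, had 0.0977, 0.203, 0.0544, 1.0998 and 0.104 FPKM in the Kiss1-high cells, against 1.43 to 37.8 FPKM (median 16.6) in the other 18. Pfkl, the liver-type phosphofructokinase of glycolysis, named because it is 1 of the 6 below every other cell, had 17.9, 0.845, 0.215, 16.7 and 21.6 FPKM in the Kiss1-high cells, against 23.6 to 135 FPKM (median 44.3) in the other 18.

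Enzymes and mitochondrial proteins followed, most of them with a lone Kiss1-high cell in the range of the others. Tomm5, part of the mitochondrial protein import pore, was at 108, 0.362, 0.291, 0 and 0 FPKM, against 6.76 to 254 FPKM (median 68.7): JCb5.2-8 was like the others and the 4 JCb6 cells were below all of them. Prdx3, a mitochondrial peroxidase, was at 50.98, 1.64, 4.46, 4.25 and 0.194 FPKM, against 21.8 to 211 FPKM (median 59.6), with the same exception. Glo1, which detoxifies methylglyoxal, was at 2.21, 1.62, 0.363, 49.1 and 1.38 FPKM, against 25.998 to 187 FPKM (median 104), with JCb6-05 as the exception. Aprt, an adenine salvage enzyme, was at 3.07, 3.78, 0.5701, 0.137 and 14.9 FPKM, against 14.3 to 289.9 FPKM (median 75.9), and JCb6-08 just entered the range of the others.

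Slc25a11, the mitochondrial oxoglutarate carrier, was at 20.2, 4.43, 0.911, 4.11 and 59.7 FPKM, against 50.9 to 195 FPKM (median 109), again with JCb6-08 in the range of the others. Qdpr, which regenerates tetrahydrobiopterin, was at 48.99, 1.44, 0.423, 127 and 0 FPKM, against 31.02 to 208 FPKM (median 126), and was present in JCb5.2-8 and JCb6-05. Hebp1, Pon2, Cda, Ppap2a, Carkd, Prr24 and Ppp2r2b were the remaining ones, with differences between -4.15 and -3.57 over all cells. Each lower gene was read beside the smaller number of genes detected in the Kiss1-high cells, whose part was not tested.

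**Figure D4:**
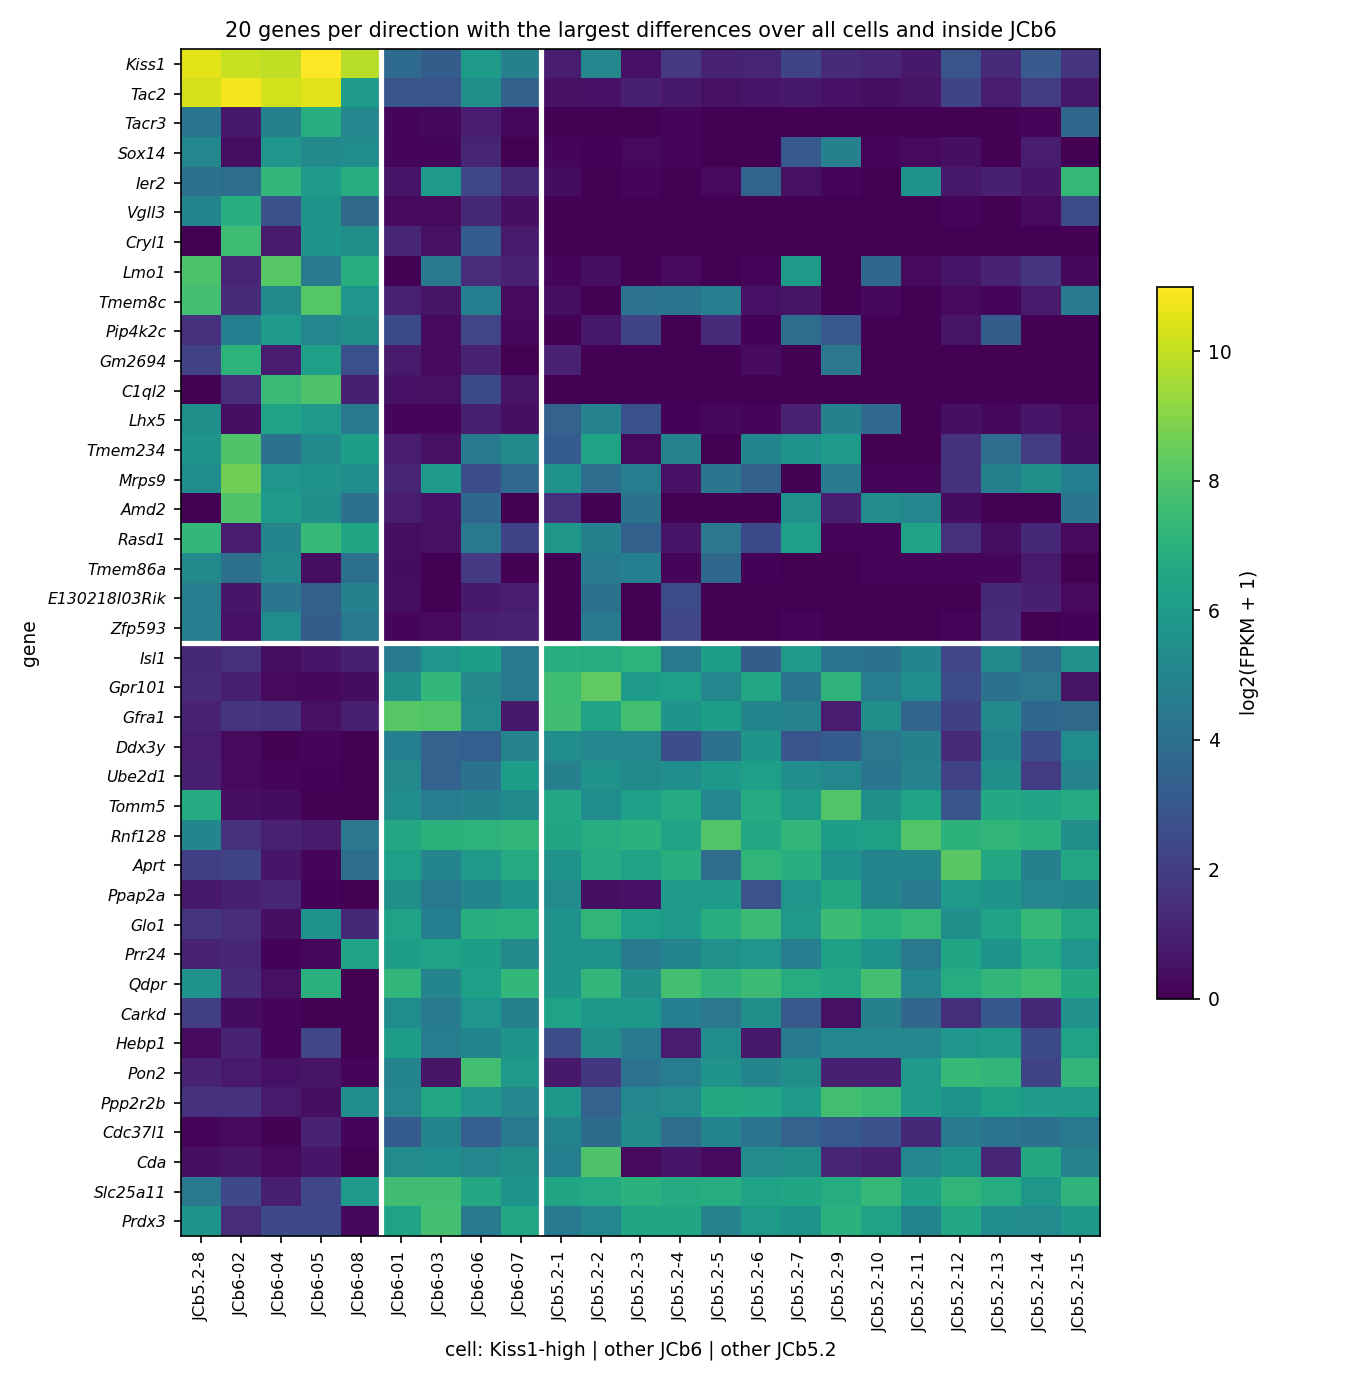
Heat map of log2(FPKM + 1), in colour, for the 20 higher (top) and 20 lower (bottom) genes with the largest difference in the smaller of both comparisons. Columns are cells: 5 Kiss1-high cells, 4 other JCb6 cells and 14 other JCb5.2 cells, separated by white lines. JCb6-02 is dark for Tacr3, Sox14, Lmo1, Tmem8c and Lhx5, and JCb5.2-8 is bright for Tomm5.

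JCb5.2-8 differs in prefix from the other Kiss1-high cells, so it shows how far the JCb6 contrast carries over to cells that contrast did not use. It was compared with the median of the 14 other JCb5.2 cells, a difference of 1 or more being higher in 2282 genes (19.7%) and lower in 2573 (22.2%). Of the 952 genes other than Kiss1 that were higher inside JCb6, 273 (28.7%) were higher in JCb5.2-8 and 201 (21.1%) lower. Of the 3185 lower inside JCb6, 1005 (31.6%) were lower in JCb5.2-8 and 582 (18.3%) higher. In these sets the shares in the same direction were above those of all genes, and most genes of the JCb6 contrast did not differ in the same direction in JCb5.2-8. Of 72 genes other than Kiss1 apart upward inside JCb6, JCb5.2-8 was the highest JCb5.2 cell in 9 (12.5%) and the lowest in 8 (11.1%). Of 356 apart downward it was the lowest in 27 (7.58%) and the highest in 21 (5.90%). Over all genes other than Kiss1 it was the highest in 8.10% and the lowest in 5.36%.

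The 20 genes per direction with the largest differences were ranked in part by JCb5.2-8 itself, so its place among them is a description that their choice favours. It was the highest of the 15 JCb5.2 cells for 11 of the 19 higher genes other than Kiss1 and the lowest for 11 of the 20 lower ones. The highest ones included Tac2, Vgll3, Tacr3, Sox14, Lmo1, Tmem8c, Lhx5 and Rasd1, and Bsx, Ramp3, Greb1 and Cacna1g from the lists. It was the lowest for genes such as Isl1, Ube2d1, Rnf128, Ddx3y, Cdc37l1, Aprt, Glo1, Hebp1, Irs4 and Six3. For all genes JCb5.2-8 was the highest of the 15 in 940 (8.11%) and the lowest in 621 (5.36%).

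**Figure D5:**
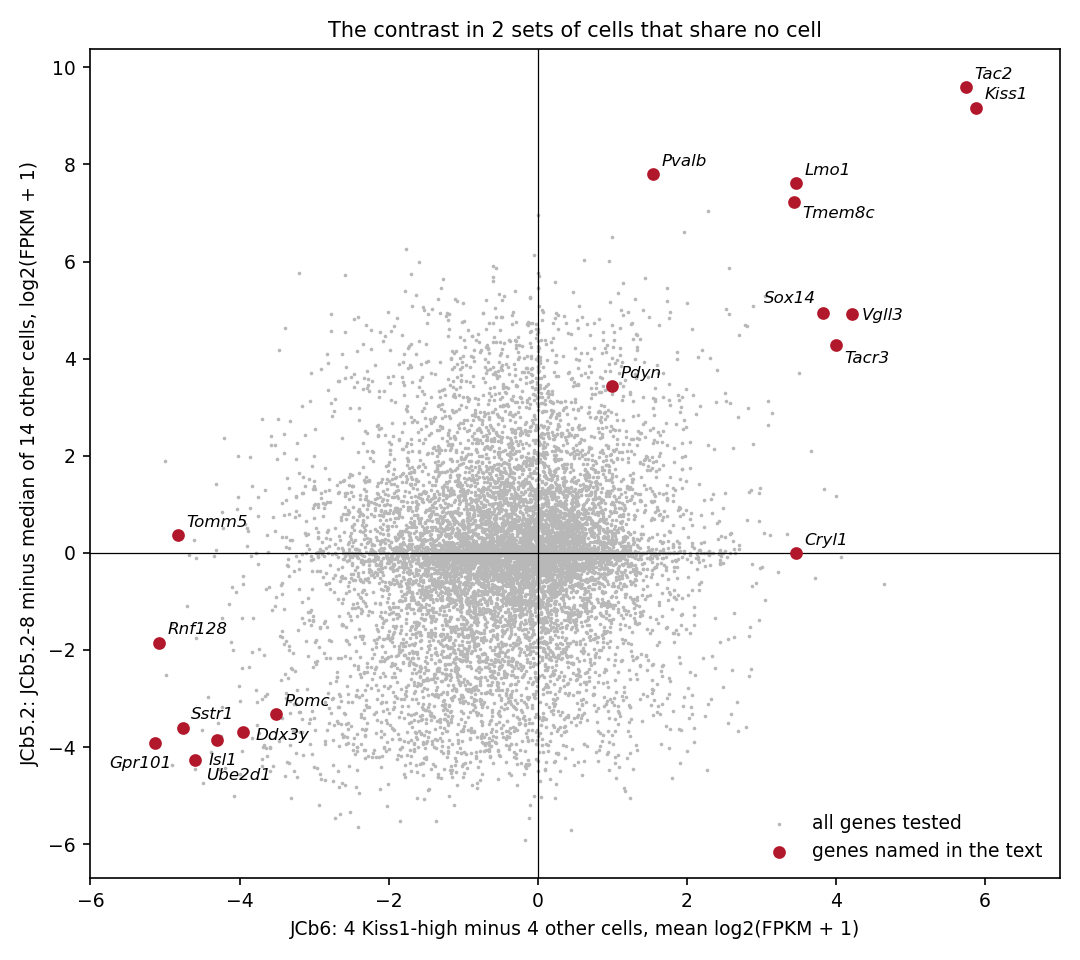
Each grey point is 1 of 11593 genes. The horizontal axis is the difference in mean log2(FPKM + 1) inside JCb6, 4 Kiss1-high minus 4 other cells, and the vertical axis is JCb5.2-8 minus the median of the 14 other JCb5.2 cells. Kiss1, Tac2, Vgll3, Tacr3 and Sox14 lie at the upper right and Gpr101, Isl1, Ube2d1 and Ddx3y at the lower left, while Cryl1 and Tomm5 lie near 0 on the vertical axis.

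Over the whole transcriptome the Kiss1-high cells were no closer to each other than to other JCb6 cells. The Spearman rho between cells, over 11590 genes without the 3 KNDy peptide genes, had a median of 0.601 (0.567 to 0.656, 6 pairs) among the 4 Kiss1-high JCb6 cells. Between them and the other JCb6 cells the median was 0.611, and among the other JCb6 cells it was 0.654. JCb5.2-8 had a median of 0.561 with the Kiss1-high JCb6 cells, 0.583 with the other JCb6 cells and 0.591 with the other JCb5.2 cells. JCb6-02, the cell with the fewest genes at or above 1 FPKM, enters every median that uses the Kiss1-high JCb6 cells. The part of its gene number in these medians was not tested. All pairs share the amplification method, and pairs within a prefix may share more, so the values are a description with no p.

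A rule chosen after these values were seen relaxed the demand by 1 cell. In 23 genes (0.198%) at least 4 of the 5 Kiss1-high cells lay above every other cell, and in 62 (0.535%) at least 4 lay below. JCb6-02 was the exception in 7 of the 23 genes above, among them Fgf13, Ldhb and Nell1 beside Tacr3, Sox14, Tmem8c and Acot1. It was the exception in only 2 of the 62 below, where JCb5.2-8 was the exception in 19. JCb6-02, the cell with the fewest genes, was thus the most frequent exception above and the least frequent below.

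Some differences over all cells went with the title prefix. The genes of oxytocin (Oxt) and vasopressin (Avp) show why the check inside JCb6 matters: Oxt was at 0, 1432, 322, 397 and 349 FPKM in the Kiss1-high cells and 488, 357, 3014 and 393 FPKM in the other JCb6 cells, with a difference of 4.32 over all cells and -0.42 inside JCb6. Avp was at 0, 2550.2, 571, 614 and 666 FPKM and 881, 654, 5186 and 705 FPKM, with 5.26 over all cells and -0.46 inside JCb6. Both were high in every JCb6 cell, Kiss1-high or not, and 0 in JCb5.2-8, the only Kiss1-high cell with the other prefix. For Avp the difference of JCb5.2-8 from the median of the other JCb5.2 cells was 0. In these cells both genes thus went with the prefix, and the cause was not tested.

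Of 7 astrocyte genes none reached 1 FPKM in a Kiss1-high cell, with a summed level of 0.0154 to 1.46 FPKM there, against 0 to 166 in the others. A single microglial gene of 7 did, and they summed to 0.0940 to 1.996 FPKM, against 0.0729 to 8.86, while 1 of 12 vascular genes did, with sums of 0.188 to 14.0 FPKM, against 0.196 to 22.04. Of 10 oligodendrocyte genes 5 did, with sums of 0.783 to 63.5 FPKM, against 0.218 to 53.4, the highest in JCb6-08 at 41.3 FPKM of Mbp and 13.03 FPKM of Mag. All 5 red blood cell genes did, with sums of 44.2 to 2398 FPKM, against 3.45 to 622, the highest in JCb6-04 with 1594 FPKM of Hba-a2; the copies of this family are near identical, so their split is uncertain. Of 8 tanycyte and ependymal genes 3 did, with sums of 1.403 to 53.9 FPKM, against 0.317 to 259. The microglial gene Csf1r and the pituitary hormone genes Gh and Prl were listed at 0 in all 5 Kiss1-high cells. The part of these transcripts in the differences above was not tested.

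The labels name male mice, and of 4 Y-linked genes Ddx3y and Eif2s3y were lower in the Kiss1-high cells, beside 15.9% of all genes. Ddx3y, an RNA helicase on the Y chromosome, had 0.866, 0.211, 0.0567, 0.123 and 0.0542 FPKM in the Kiss1-high cells, against 1.57 to 50.6 FPKM (median 22.5) in the other 18, with a difference of -3.81 over all cells and -3.95 inside JCb6. The groups did not overlap. The other Y-linked genes overlapped between groups. Eif2s3y was at 81.9, 0, 0.161, 0 and 0 FPKM in the Kiss1-high cells, against 0 to 73.5 FPKM (median 4.52) in the other 18, and its call was lost over all cells without JCb6-02, JCb6-05 or JCb6-08 (-0.86 each) or JCb6-04 (-0.92) and inside JCb6 without JCb6-07 (-0.22). Uty was at 0.1799, 89.997, 0.676, 0.127 and 0.143 FPKM, against 0 to 15.4 FPKM (median 1.71), and Kdm5d at 0, 0.08899, 10.3, 0.0172 and 0 FPKM, against 0 to 21.3 FPKM (median 0.185). JCb5.2-8, JCb6-02 and JCb6-04 thus had 1 of these 4 genes each above 1 FPKM, and JCb6-05 and JCb6-08 had none. Xist, the RNA that silences an X chromosome in females, was at 0.0938, 0.0389, 4.64, 0.596 and 2.69 FPKM, against 0 to 5.26 FPKM (median 0.0279) in the other cells. The part of the number of genes detected in the low Y-linked values was not tested.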

How the data were processed

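RNA of 23 single cells was amplified with SmartSeq2 and made into libraries with a NuGen kit, per the labels' protocols. CASAVA 1.8, TopHat and Cufflinks and the build mm10 are named in the submitters' processing notes (annotation and filters: not given in the sources used here). Values are deposited as a table of FPKM, 1 column per cell. Counts were not used here, and there are no molecular identifiers, so amplified copies count as fragments. FPKM inflates short loci, and abundant transcripts in a cell depress the values of its other genes.

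Of 23896 rows, 12 of a leftover summary block, 27 with names turned into dates and 286 identical copies were dropped, and rows of 124 symbols were summed, which left 23373 genes. Locus starts count from 0 in the table (for 9298 of 21588 genes the RefSeq start was 1 higher and the end equal) and are printed from 1. Strand and gene type are from GENCODE, and promoter windows are from RefSeq.

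Cells with at least 500 FPKM of Kiss1 form the Kiss1-high group. Differences are means of log2(FPKM + 1), Kiss1-high minus other, over 11593 genes; exact zeros are described as listed at 0. Depth is known only relative to the shallowest library. The steps were tested on simulated data. Named genes are the KNDy peptides, their receptors and the steroid receptors, the 20 per direction with the largest smaller difference of both comparisons, and in each list the genes called in both and the 3 with the highest means; Cramp1l, Pfkl and the genes above or below in 4 of 5 cells were added after their values were seen. Some genes that this rule names are not reported here. The members and lists were chosen with earlier results of these data known. Alternatives were other pseudocounts, filters, thresholds and scalings, and leaving out cells. Calculations ran in Python 3.11.15 with pandas 2.3.3, numpy 2.4.6 and scipy 1.17.1; figures were drawn with matplotlib 3.10.9.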

Additional observations from a re-analysis of the deposited data

Results flagged for a closer look

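In 23 of 67 quantities checked among the 5 Kiss1-high cells, a lone cell lay far from the other 4. For normally distributed values chance flags about 1 in 20 groups; many of these values are at or near 0, so that rate is no reference for this count. Values here are log2(FPKM + 1) unless stated. JCb6-02 was the lone cell for Sox14 (0.42, against 5.10 to 5.73 in the other 4), Oprm1 (7.59, against 0.07 to 0.37) and Mrps9 (8.63, against 5.37 to 5.79). It was also alone in 4049 genes at or above 1 FPKM (5990 to 6698 in the other 4), in an FPKM sum of 687163 (538725 to 580720) and in a share of 14.4% for its 10 most abundant genes (6.63 to 8.60%).

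JCb6-08 was the lone cell for Tac2 (6.09, against 10.24 to 10.83), Thrb (2.52), Rxra (3.65), Prr24 (6.43) and Ppp2r2b (5.37). JCb6-04 was the lone cell for Pdyn (7.01, against 9.51 to 10.13), Nr3c2 (3.01), Rarb (5.49) and Rora (0.12). JCb6-05 was the lone cell for Nr2f2 (2.94), Tmem86a (0.43, against 4.06 to 5.25), Glo1 (5.65) and Cdc37l1 (1.07). JCb5.2-8 was the lone cell for Esrra (1.38), Ddx3y (0.90), Tomm5 (6.77, against 0 to 0.45) and Carkd (2.03). In every gene given here without a range the lone cell was above the other 4. None of 63 genes checked had the JCb6 groups apart in one direction and JCb5.2-8 beyond every other JCb5.2 cell in the opposite one. The 63 include the 20 genes per direction, ranked in part by JCb5.2-8 itself, so their choice disfavours such a case. Among all genes tested such cases occurred. JCb5.2-8 was the lowest JCb5.2 cell in 8 of the 72 genes other than Kiss1 apart upward inside JCb6. It was the highest in 21 of the 356 apart downward. The causes were not tested.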

How the results depend on the processing

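Counts of called genes moved with the pseudocount, the size of difference called and the Kiss1 threshold. In the order higher over all cells, lower over all cells, higher inside JCb6, lower inside JCb6, higher in both and lower in both, a pseudocount of 0.1 gave 1216, 4404, 1546, 4865, 745 and 3339. A pseudocount of 10 gave 146, 432, 228, 744, 94 and 312, and a difference of 2 gave 97, 509, 178, 940, 54 and 356. A Kiss1 threshold of 1000 FPKM, which moves JCb6-04 and JCb6-08 to the other cells, gave 1430 higher inside JCb6 and 702 in both. Leaving out JCb6-02 and JCb6-08 together, chosen after seeing the data, gave 1253 higher over all cells, 1933 inside JCb6 and 870 in both. Leaving out each of the 5 Kiss1-high and 4 other JCb6 cells in turn gave 682 to 983 higher and 1929 to 2911 lower over all cells, 953 to 1508 higher and 2552 to 3660 lower inside JCb6, and 413 to 668 higher and 1373 to 2240 lower in both. Of these, the counts without JCb6-02 (1508 and 668) moved by over 1.5 times. Filters, locus lengths, rescaling and summed copies kept all 6 counts within 1.5 times; of the genes apart over all cells, Cramp1l overlapped after either rescaling.

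Of 7102 recomputed differences of named genes, 350 moved by more than the SD among the Kiss1-high cells without being counted as a change of sign. A change of sign was counted only where the difference reported above was 1 or more in size, and 27 such changes were found. With the Kiss1 threshold at 1000 FPKM these were, inside JCb6, Oprm1 (1.77), Rxrb (-0.17), Bsx (-0.40), Nhlh2 (-0.18), Ramp3 (-1.47), Glrb (0.22), Lmo1 (-0.81) and Zfp593 (-0.15), and over all cells Kcnk2 (-0.063). In both comparisons, over all cells first, they were Pcsk1 (0.43 and 0.63), Vgf (0.60 and 1.33), Gad1 (0.44 and 0.78), Gabrg1 (0.48 and 1.12) and Hba-a1 (-1.06 and -1.83). With a pseudocount of 10, Oprm1 was 0.038 inside JCb6. Leaving out 1 cell at a time, Syp ran from -1.67 to 0.0952 (without JCb6-02) and Fos from -0.32 (without JCb6-01) to 2.004 inside JCb6. Without JCb6-02 and JCb6-08 together, Gabrg1 was 0.0003 over all cells, and Glrb 0.21, Syp 0.080, Tubb3 0.18 and Hbb-b2 0.46 inside JCb6. The cause was not tested. No paired analysis was possible because the cells form 1 group in the labels and no test was made.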
